A study of Homo sapiens with 12 samples.

Results

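The growth of K562 cells without drug was followed in cells whose BARD1 was repressed together with 1 partner gene at a time. K562 is a human chronic myelogenous leukemia line, here one that carries CRISPR interference, in which a catalytically dead Cas9 fused to a repressor lowers transcription at the site an sgRNA targets. Each construct of the library expressed 2 sgRNAs, and its abundance was read by sequencing. BARD1 as the background was chosen by measured values of these same counts. Its partners were not chosen: all 542 other genes of the 543 in the library were used, each with 8 constructs per gene pair (2 BARD1 sgRNAs, 2 partner sgRNAs, both orders), which makes 4336 constructs of 1301881.

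The comparison was between 2 groups of libraries. The DMSO group is the vehicle-treated endpoint, sampled on day 18 after transduction in the 2022 screen and on day 19 in the 2023 screen. The T0 group was sampled on day 9, from the same cultures before the vehicle was added. Each screen had 2 replicate cultures, so every value below comes from 4 cultures, called 2022 replicates 1 and 2 and 2023 replicates 1 and 2. All cells of both groups carried the CRISPR interference machinery and a dual-sgRNA construct and had been selected with puromycin. The labels state 2 biological replicates for each screen. The 4 niraparib libraries were not used here. As limits of the model, the knockdowns are partial and their depth was not measured in these files, and 1 cell line was used. The DMSO libraries held 187.2 to 460.7 megareads and the T0 libraries 221.8 to 325.9 megareads, with a median of 101 to 258 and of 155 to 227 reads per construct.

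BARD1 is the obligate partner of BRCA1. The 2 proteins bind through their RING domains to form a ubiquitin ligase that marks histone H2A, and BARD1 reads both unmethylated histone H4 of newly replicated chromatin and H2A ubiquitinated at damage sites, which brings the complex to broken DNA. There it promotes end resection and homologous recombination through PALB2 and BRCA2, in competition with 53BP1, which protects ends from resection. The Fanconi anemia proteins, in turn, unhook crosslinks between DNA strands and protect stalled replication forks.

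The BARD1 gene lies on chromosome 2 at 214725646 to 214809683 in GRCh38.p14, on the minus strand. CRISPR interference acts at the start of transcription, so the window around the BARD1 start is shown, from RefSeq, at chr2:214809634-214809933 on the minus strand, written 5′ to 3′ along the gene. It covers 250 bases before and 50 bases from the annotated start onward, and the single capital marks the start base:
BARD1: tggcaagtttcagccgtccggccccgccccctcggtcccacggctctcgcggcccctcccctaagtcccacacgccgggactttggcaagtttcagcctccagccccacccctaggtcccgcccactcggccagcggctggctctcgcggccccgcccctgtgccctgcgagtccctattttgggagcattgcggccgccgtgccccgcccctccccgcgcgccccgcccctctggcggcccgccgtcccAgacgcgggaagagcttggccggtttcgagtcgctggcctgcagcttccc
The names of the 2 BARD1 sgRNAs carry the positions 215674388 and 215674399, both with a plus sign and 11 apart, on a genome build that is not given in the sources used here. They were therefore not placed in this window, and being so close together they are not independent of each other in site.

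Growth is given as the log2 ratio of the DMSO over the T0 count, relative to the 3025 constructs with 2 of the 55 non-targeting sgRNAs. A value of 0 is thus the growth of control cells, and a negative value is slower growth than theirs. With non-targeting sgRNAs in the other position, BARD1 knockdown had a growth of -2.06 in 2022 replicate 1, -1.13 in 2022 replicate 2, -1.09 in 2023 replicate 1 and -1.07 in 2023 replicate 2. The mean was -1.33 ± 0.48 (SD, n = 4 cultures), given as a description because BARD1 was selected on such values. The 2022 replicate 1 culture stood apart from the other 3, and it did so for BRCA2 and BRCA1 as well. BRCA2 had -2.10 there and -1.05, -1.08 and -1.06 in the others. BRCA1 had -0.80 there and -0.38, -0.40 and -0.38 in the others. The first BARD1 sgRNA, at the lower position, had a growth of -1.55 ± 0.43 and the second of -1.10 ± 0.53 (SD, n = 4 each). BRCA1 averaged -0.49 ± 0.20 and BRCA2 -1.32 ± 0.52, so that BARD1 and BRCA2 knockdowns fell behind control cells to a similar extent and BRCA1 knockdown less.

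The interaction of BARD1 with a partner is the growth of the pair relative to BARD1 with non-targeting sgRNAs, minus the growth of the same partner with non-targeting sgRNAs. A negative interaction means that the pair grew more slowly than the 2 single knockdowns add up to on the log2 scale, and a positive one that it grew faster. It was tested with edgeR's quasi-likelihood test on the summed counts, with p-values adjusted over all gene pairs of the library, and called at an adjusted p below 0.05. These p-values, and the SE of the edgeR estimates, rest mostly on a spread pooled over the pairs of the library (39.6 prior against 3 residual degrees of freedom). They are therefore not a measure of how well the 4 cultures of a single pair agree. The p-values also make no allowance for the choice of BARD1.

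Fanconi anemia genes held most of the lowest places, and the highest places went to partners that grew slowly on their own. Of 542 partners, 69 were lower (12.7%) and 297 higher (54.8%) with BARD1 than their own growth predicted, and 176 were not called. Over all 147124 gene pairs tested, 3.14% were called lower and 39.3% higher, with a median interaction of 0.08, against 0.17 for the BARD1 partners. BARD1 ranked 16 among the 543 genes by its number of lower partners, which ran from 0 to 313 with a median of 11. Among BARD1 paired with 27 stand-in genes, each made of 2 non-targeting sgRNAs, edgeR called 0, and their values ran from -0.10 to 0.10. Over all 14661 pairs of a gene with such a stand-in, 5.6% were called in either direction. All 69 lower partners were below that range. With the library level set so that interactions centre near 0 over all pairs (TMM), every interaction shifted by -0.08 and the split was 109 lower to 244 higher.

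**Figure D1:**
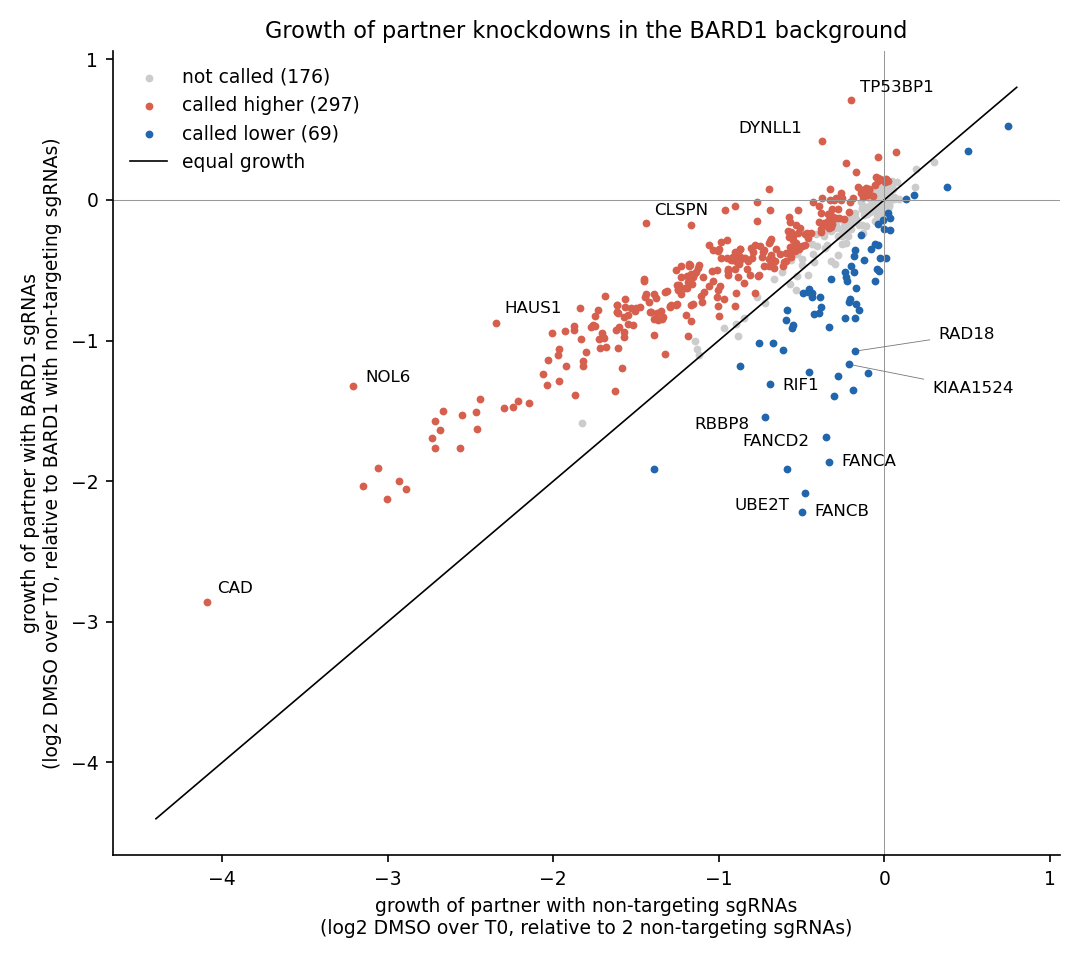
Mean growth of each of 542 partners with BARD1 sgRNAs (vertical axis, relative to BARD1 with non-targeting sgRNAs) against its growth with non-targeting sgRNAs (horizontal axis, relative to 2 non-targeting sgRNAs), both as log2 of DMSO over T0, with points coloured by call and a line of equal growth. The lowest Fanconi anemia genes, such as FANCB at -2.22 with BARD1 and -0.50 alone, lie far below the line, and partners with slow growth of their own lie above it.

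Positive interactions followed the partner's own growth. Of the 201 partners with an own growth above -0.25, 19.4% were lower and 14.9% higher with BARD1, with a median interaction of 0.00. Among the 195 partners between -1 and -0.25, 14.9% were lower and 64.6% higher, with a median of 0.21. Below -1 nearly all were higher: 115 of 120 partners between -2 and -1, with a median of 0.65, and 26 of 26 below -2, with a median of 0.96. Over all gene pairs, the same bins of own growth held 11.0%, 48.7%, 65.2% and 66.2% higher calls, so this pattern was shared by other backgrounds. When a quadratic curve was fitted for each background through the growth of its partners, and the interaction was taken as the residual from it (limma), 77 BARD1 partners were lower and 79 higher, against 4.62% and 4.36% over all pairs in both directions of pairing. Of the 69 lower partners, 55 were also lower by this residual, but of the 297 higher ones only 67 were also higher and 10 were lower.

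The strongest negative interaction was with FANCB, a core subunit of the Fanconi anemia ubiquitin ligase. Its 8 constructs with BARD1 had 173, 334, 171 and 168 reads in the DMSO libraries of 2022 replicates 1 and 2 and 2023 replicates 1 and 2, against 1516, 1495, 1029 and 1073 reads in the T0 libraries. Control constructs with 2 non-targeting sgRNAs increased in reads over the same time in every culture, so the pair was lost from all 4. FANCB knockdown had a growth of -2.22 ± 0.10 in the BARD1 background and of -0.50 ± 0.17 with non-targeting sgRNAs (SD, n = 4 each). The interaction was -1.62, -1.78, -1.75 and -1.74 in the 4 cultures, which left the pair at 30.1% of its expected DMSO level (edgeR log2 -1.73 ± 0.09, SE, adjusted p = 3.94e-21).

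UBE2T, the ubiquitin-conjugating enzyme that works with the Fanconi core ligase, was next. Its interaction with BARD1 was -0.98, -1.59, -1.89 and -1.97 in 2022 replicates 1 and 2 and 2023 replicates 1 and 2. All were far below 0, and the 2022 replicate 1 culture had the weakest value. FANCA, another core subunit, had -1.01, -1.50, -1.78 and -1.81 in the same order, and FANCD2, which the ligase ubiquitinates, had -0.91, -1.49, -1.40 and -1.55. In both, 2022 replicate 1 was again the weakest of the 4. C19orf40, which RefSeq now names FAAP24 and which anchors the complex to DNA, had -0.85, -1.09, -1.62 and -1.73.

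Of 16 measured Fanconi anemia genes, 14 were lower, 0 were higher and 2 were not called by edgeR, beside 12.7% lower and 54.8% higher among all BARD1 partners. The median interaction of the 16 was -1.02 against 0.17 over all BARD1 partners. Fanconi genes took 9 of the 12 lowest places among the 542. After the 5 genes above came FANCF (-1.16 ± 0.07, SE), FANCE (-1.13 ± 0.07) and FANCG (-0.96 ± 0.09), all core subunits, and FANCI (-1.08 ± 0.09), the partner of FANCD2 that is ubiquitinated with it. The median own growth of the 16 was -0.32. FANCE, the mildest alone of the 12 lowest partners, had a growth of -1.23 ± 0.20 in the BARD1 background and of -0.10 ± 0.04 with non-targeting sgRNAs (SD, n = 4 each). The remaining lower members, named after their values were seen, were the translocase FANCM at -0.76, the catalytic subunit FANCL at -0.63, FANCC at -0.60, STRA13 (now CENPX, a histone-fold partner of FANCM) at -0.51 and WDR48, a cofactor of the deubiquitinase USP1, at -0.34. C17orf70 (now FAAP100) at -0.04 and the nuclease scaffold SLX4 at -0.02 were not called, with adjusted p of 0.457 and 0.839. C17orf70 had almost no effect alone (own growth -0.00078 ± 0.01, SD, n = 4), and whether its sgRNAs repressed it was not tested.

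Levels at T0, 9 days after transduction, were already lower for these pairs. The T0 level is the log2 of the summed T0 count over the product expected from both single knockdowns. It was -0.99 ± 0.12 for C19orf40, -0.56 ± 0.06 for both FANCM and FANCD2, -0.47 ± 0.06 for FANCA and -0.40 ± 0.02 for FANCB (SD, n = 4 T0 libraries each). Of the 14 Fanconi genes called lower, 13 were below 0 at T0 in all 4 cultures. Among all 69 lower partners that number was 44, and among all 542 partners 119. The median T0 level was -0.10 for the lower partners and 0.02 for all. Because T0 is the denominator of growth, the interactions leave out any difference already present on day 9. The series holds no earlier library, and how these levels arose was not tested.

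**Figure D2:**
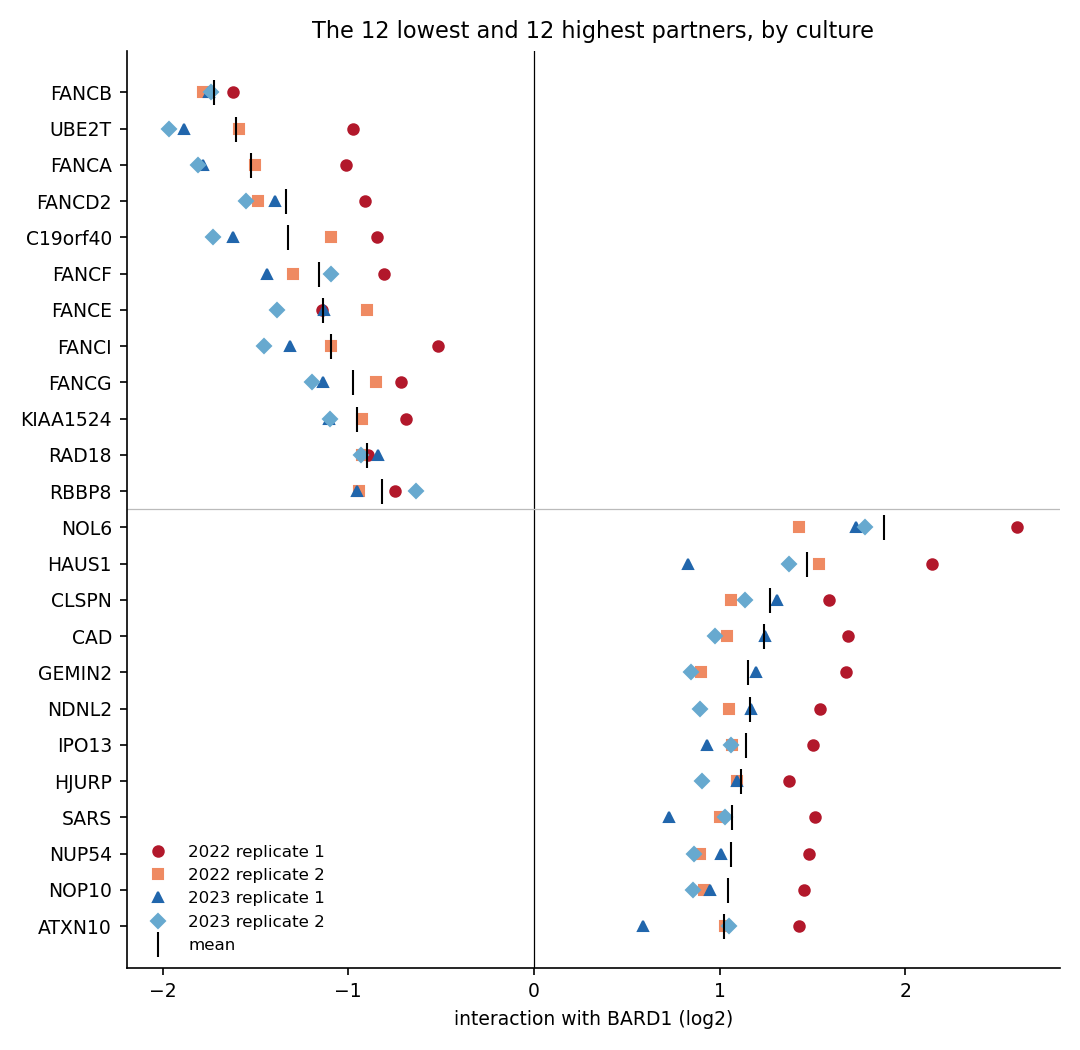
Interaction with BARD1 (log2, horizontal axis) in each of the 4 cultures for the 12 lowest and the 12 highest called partners with the same sign in all cultures. Among the lowest, 2022 replicate 1 gave the value nearest to 0 for most Fanconi genes, and among the highest it gave the largest value for all 12.

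Besides the Fanconi genes, the 12 lowest partners held KIAA1524, RAD18 and RBBP8. KIAA1524, now named CIP2A, tethers broken chromosomes through mitosis together with TOPBP1. Its interaction was -0.69, -0.92, -1.10 and -1.10, which left 51.8% of the expected level. RAD18, the ligase that ubiquitinates PCNA for tolerance of DNA damage, had -0.90, -0.92, -0.84 and -0.93, with the smallest spread among the 24 partners plotted (SD 0.04). RBBP8, which encodes the resection factor CtIP, had -0.75, -0.94, -0.95 and -0.63. All 4 cultures had the same sign for each of the 3 genes, and their adjusted p-values in edgeR were 8.96e-14, 6.02e-17 and 2.51e-11. Over the 12 lowest partners, adjusted p ran from 3.94e-21 to 2.51e-11 and all 12 were also called by the residual from the curve.

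Recombination genes themselves were mostly lower, by less. Among the 21 measured members of the list of BRCA1 partners and recombination mediators, 14 were lower, 2 higher and 5 not called, with a median of -0.20. Among all BARD1 partners, 12.7% were lower and 54.8% higher. The lowest of the 21 were HELQ, a helicase that unwinds and anneals DNA strands (-0.67 ± 0.06, SE), and the recombination mediator RAD51B (-0.57 ± 0.06). Next were SWI5, a recombination cofactor (-0.46 ± 0.06), and the recombination mediator XRCC2 (-0.39 ± 0.06). HELQ was at -0.60, -0.79, -0.57 and -0.69 in the 4 cultures and cost little alone, with an own growth of -0.18 ± 0.03. BRCA2 was called higher (0.22 ± 0.06).

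BRCA1, the partner of BARD1 in the heterodimer, had no large interaction with it. The values were 0.11, -0.16, -0.24 and -0.41 in 2022 replicates 1 and 2 and 2023 replicates 1 and 2, so 3 cultures were below 0 and 1 above. The edgeR estimate was -0.17 ± 0.06 (SE, adjusted p = 0.0185), and the call was lost without 2023 replicate 1 (-0.15, adjusted p = 0.107) or without 2023 replicate 2 (-0.10, adjusted p = 0.276). The estimate was -0.02 with the first BARD1 sgRNA alone (adjusted p = 0.881) and -0.33 with the second (adjusted p = 0.000756). In edgeR fits of single screens it was -0.03 in 2022 (adjusted p = 0.819) and -0.32 in 2023 (adjusted p = 0.000129). In growth, BRCA1 knockdown reached -0.66 ± 0.10 in the BARD1 background, against -0.49 ± 0.20 with non-targeting sgRNAs (SD, n = 4 each). BRCA2 had 0.62, 0.04, 0.03 and 0.22, all above 0 with 2022 replicate 1 far above the rest. Its call was lost without that culture (0.09, adjusted p = 0.292), and by the residual from the curve it lay at -0.35. PALB2, which links BRCA1 to BRCA2 and is named after its values were seen, had -0.11, -0.24, -0.29 and -0.05, below 0 in all 4 (edgeR log2 -0.18 ± 0.05, SE).

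All 4 measured members of the BRCA1-A complex, which holds BRCA1 at ubiquitinated chromatin and restrains resection, were lower with BARD1. FAM175A, now ABRAXAS1, the scaffold, had -0.51, -0.52, -0.38 and -0.49, and UIMC1, the ubiquitin-binding subunit RAP80, had -0.60, -0.37, -0.42 and -0.32. Neither cost growth alone, at -0.03 ± 0.03 and 0.01 ± 0.02 (SD, n = 4). The deubiquitinase BRCC3 was at -0.27 ± 0.05 (SE) and BABAM1 at -0.14 ± 0.05, and the call for BABAM1 was lost without 2022 replicate 2 (-0.11, adjusted p = 0.187) or 2023 replicate 1 (-0.13, adjusted p = 0.0889). Of 9 end resection genes, 4 were lower, 1 higher and 4 not called, with a median of -0.11. Among all BARD1 partners, 12.7% were lower and 54.8% higher. The higher resection gene was the nuclease DNA2 (0.22 ± 0.08, SE). Its call was lost without 2022 replicate 1, 2023 replicate 1 or 2023 replicate 2 (0.19 to 0.22), and the residual from the curve called it lower, at -0.25. After RBBP8 the lowest were the MRE11 complex subunits RAD50 (-0.35 ± 0.07) and NBN (-0.24 ± 0.06), and RAD50 was above 0, at 0.11, in 2022 replicate 1 alone. The call for RAD50 was lost in DESeq2 (-0.35, adjusted p = 0.0888) and that for NBN in the 2022 screen alone (-0.18, adjusted p = 0.0649) and with the first BARD1 sgRNA alone (-0.16, adjusted p = 0.0981).

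TP53BP1, which encodes 53BP1, had a positive interaction although it cost little growth alone. Its pair with BARD1 had 2975, 4069, 1654 and 1556 reads in the DMSO libraries, against 2255, 2451, 1537 and 1608 reads in the T0 libraries. Its growth in the BARD1 background was 0.71 ± 0.31, above that of BARD1 with non-targeting sgRNAs, while its own growth was -0.20 ± 0.19 (SD, n = 4 each). The interaction was 1.64 and 0.80 in 2022 replicates 1 and 2 and 0.66 and 0.55 in 2023 replicates 1 and 2. It was above 0 in all 4, and 2022 replicate 1 was the highest by far. This left the pair at 190% of its expected level (edgeR log2 0.93 ± 0.08, SE, adjusted p = 9.86e-14), and at 0.68 without 2022 replicate 1. By the residual from the curve it ranked 1 among the 542 partners.

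Among the other named genes of this pathway, 2 were higher and 1 lower. DYNLL1, the dynein light chain that binds 53BP1 and restrains resection, had 0.99, 0.71, 0.75 and 0.72, and its growth was 0.42 ± 0.12 in the BARD1 background against -0.38 ± 0.03 with non-targeting sgRNAs (SD, n = 4 each). RNF8, the ubiquitin ligase upstream of 53BP1 recruitment, had 0.74, 0.36, 0.43 and 0.43. Both were above 0 in all 4 cultures. The lower one was RIF1, the effector that 53BP1 recruits, with -0.18, -0.70, -0.70 and -0.88, below 0 in all 4 and weakest in 2022 replicate 1.

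Among all 542 BARD1 partners, 54.8% were higher and 12.7% lower, with a median of 0.17. Of the 13 measured genes of the list of 53BP1, shieldin and RNF8, 8 were higher, 1 was lower and 4 were not called. Their median was also 0.17. Among the higher ones, named after their values were seen, were the shieldin subunits FAM35A (now SHLD2) at 0.34, C20orf196 (now SHLD1) and MAD2L2, both at 0.17, and the CST subunits TEN1 at 0.26 and CTC1 at 0.20. C20orf196 was uneven, at 0.48, 0.21, -0.05 and 0.01 in the 4 cultures. OBFC1, another CST subunit named after its values were seen, was not called, at 0.55, -0.04, 0.04 and 0.03. RNF168, the ligase that writes the mark 53BP1 reads, was at -0.05 and PAXIP1 at 0.02, and neither was called (adjusted p = 0.667 and 0.747). Unlike most higher partners, these genes had little growth effect alone, with a median own growth of -0.20 over the list. By the residual from the curve, 5 of the 13 were higher and 1 lower, beside 79 higher and 77 lower among all 542 partners. With BRCA1 as background, 8 of the 13 were called higher and 1 lower by edgeR, beside 287 higher and 46 lower among all 542 partners. With BRCA2, 3 of the 13 were higher and 2 lower, beside 282 and 43 among all 542.

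**Figure D3:**
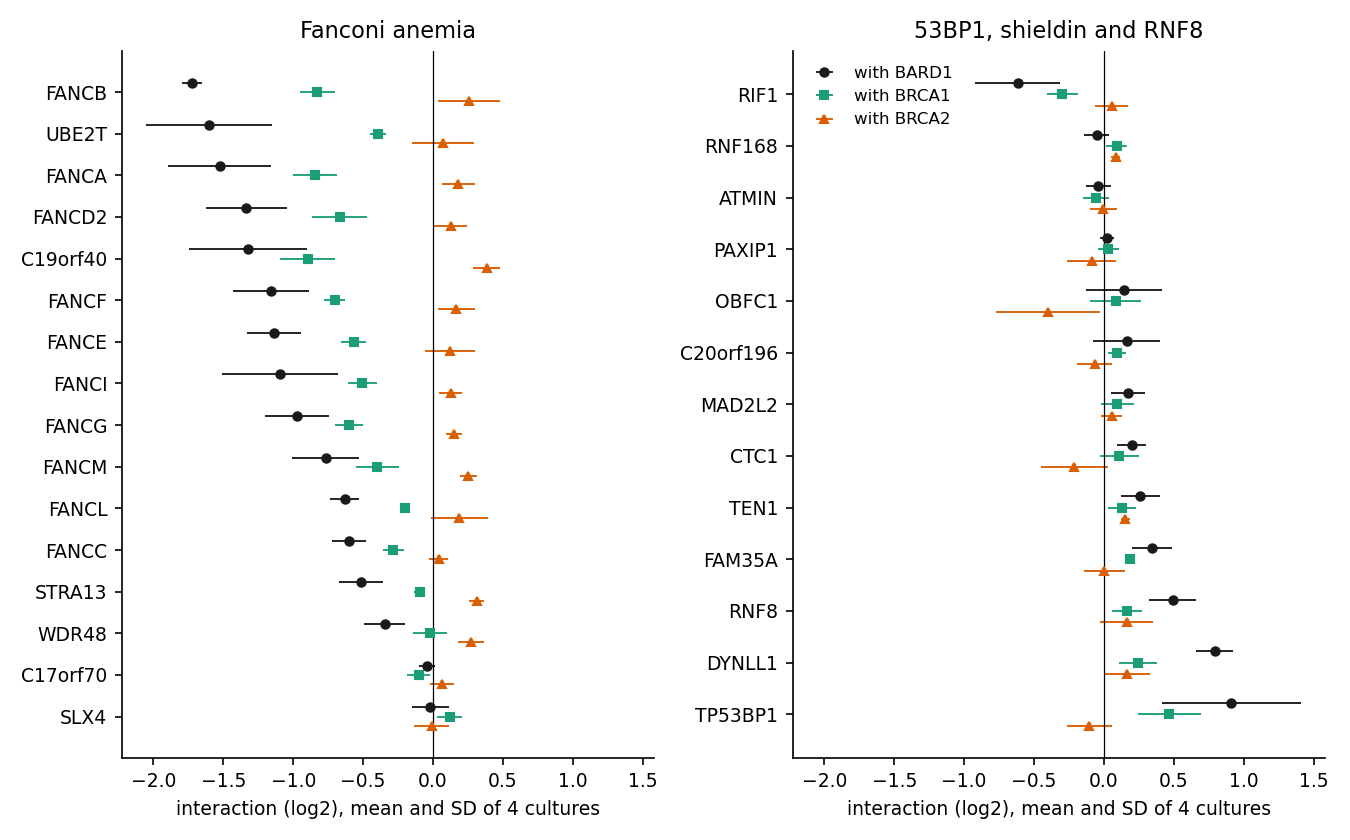
Interaction (log2, mean and SD of 4 cultures) of 16 Fanconi anemia genes and of 13 genes of the list of 53BP1, shieldin and RNF8 with BARD1, BRCA1 and BRCA2 as background. Of the 16 Fanconi genes, 14 were lower with BARD1 than with BRCA1 and than with BRCA2. With BARD1, BRCA1 and BRCA2 in turn, C17orf70 was at -0.04, -0.10 and 0.06 and SLX4 at -0.02, 0.12 and -0.01. TP53BP1 was above 0 with BARD1 and BRCA1 only.

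The 12 highest partners were all slow-growing alone, with an own growth between -4.09 and -1.44. They included NOL6, a ribosome biogenesis factor (1.91 ± 0.20, SE), HAUS1 of the augmin complex that nucleates spindle microtubules (1.54 ± 0.19), CLSPN, the checkpoint adaptor Claspin (1.28 ± 0.12), and CAD, which starts pyrimidine synthesis (1.24 ± 0.14). NOL6 had 2.60, 1.42, 1.74 and 1.78 in the 4 cultures, and its growth was -1.32 ± 0.76 in the BARD1 background against -3.21 ± 0.38 with non-targeting sgRNAs (SD, n = 4 each). The other 8 were GEMIN2, which assembles splicing particles, NDNL2 (now NSMCE3) of the SMC5-SMC6 complex, the importin IPO13, the centromere chaperone HJURP, the seryl-tRNA synthetase SARS, the nucleoporin NUP54, NOP10 of the box H/ACA particles, and ATXN10, at 1.05 to 1.17. The adjusted p-values of all 12 in edgeR ran from 1.05e-18 to 2.80e-09.

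By the residual from the curve only 3 of these 12 were called higher, CLSPN at 0.69, NOL6 at 0.63 and SARS at 0.31, and CAD was called lower at -0.31. Read counts were also small for some: HAUS1 had 170, 209, 42 and 64 reads in the DMSO libraries against 306, 324, 172 and 208 in the T0 libraries. All 12 had their highest value in 2022 replicate 1, the culture in which BARD1 alone was lost most. Over all 297 higher partners, 188 had their highest value there, and 38 of the 69 lower partners had their weakest value there. How far the stronger loss of BARD1 in that culture bears on this was not tested. Without it, 70 partners were lower and 278 higher.

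Other repair pathways moved little or in part. Of 9 end joining genes, 2 were lower and 1 higher, beside 12.7% lower and 54.8% higher among all BARD1 partners. The lower ones were KIAA1524 and POLQ, the polymerase of microhomology-mediated joining. POLQ had -0.57, -0.49, -0.62 and -0.40, with an own growth of -0.06 ± 0.05 (SD, n = 4). XRCC5, the Ku80 subunit, was higher at 0.55 ± 0.08 (SE), but it grew slowly alone, at -1.61 ± 0.18, and its residual from the curve was -0.10. PARP1, the target of niraparib, was at 0.17, -0.26, -0.41 and -0.55, for an edgeR estimate of -0.26 ± 0.07 (SE). Its call was lost without 2023 replicate 2 (-0.17, adjusted p = 0.0635).

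Of 13 members of the ATR checkpoint list, 5 were lower and 5 higher, with a median of 0.07. Among all BARD1 partners, 12.7% were lower and 54.8% higher. HUS1, of the clamp that loads at damage, had -0.0020, -0.67, -0.57 and -0.83 and was lower (-0.52 ± 0.08, SE), the more so by the residual from the curve at -1.11. ETAA1, an activator of ATR at forks, was lower at -0.38 ± 0.06, and CLSPN and the CDK1 inhibitor kinase PKMYT1 (0.44 ± 0.06) were higher. Of the 4 members of the BLM complex, which dissolves joint molecules, RMI1 (-0.23 ± 0.06) and TOP3A (-0.19 ± 0.06) were lower and 2 were not called. The call for TOP3A was lost without 2022 replicate 2 (-0.16, adjusted p = 0.067).

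By the edgeR interaction, no member was called among 5 structure-specific nucleases (-0.02 to 0.06) and 3 RNase H2 subunits (-0.11 to 0.02). The residual from the curve called 2 of the 3 RNase H2 subunits lower. In base excision and single-strand break repair, 1 of 5 was lower and 1 higher, beside 12.7% and 54.8% of all BARD1 partners. The lower one was the scaffold XRCC1 (-0.26 ± 0.05). Larger counts of higher partners came from lists of slow-growing genes, beside 54.8% higher among all 542 BARD1 partners. In the replisome list 23 of 33 were higher, with RFC3 at 0.98, MCM2 at 0.94 and PRIM1 at 0.91. In the list of spindle, centrosome and centromere 10 of 11 were higher, with PLK1 at 0.87. By the residual from the curve, 3 of the 33 were called higher and 5 lower, and of the 11, 1 was higher and 1 lower. Among all 542 partners, 79 were higher and 77 lower by that residual. MCM2 was at -0.25 there.

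The counts of higher members in the smaller lists stand beside 54.8% higher among all BARD1 partners. Both measured members of the SMC5-SMC6 complex were higher, NDNL2 and SMC6 (0.67 ± 0.06, SE). Of 3 topoisomerases, TOP2A (0.94 ± 0.10) and TOP1 (0.67 ± 0.05) were higher and TOP3A lower. The 4 higher genes grew slowly alone, and by the residual from the curve 0 of the 2 and 0 of the 3 were called higher in limma (NDNL2 0.07, SMC6 0.13, TOP2A 0.21 and TOP1 0.03). Of 6 cohesin genes 4 were higher, led by the loader MAU2, which had 0.37, 0.33, 0.36 and 0.33 in the 4 cultures, and PDS5B, a cohesin regulator that also binds recombination factors, was lower at -0.24 ± 0.04. Of 8 genes of ADP-ribose turnover, PARP1 was lower and 2 enzymes of NAD synthesis were higher, NMNAT1 (0.43 ± 0.06) and NAMPT (0.33 ± 0.05). By the residual from the curve 0 of the 8 were called higher and 1 lower, with NMNAT1 at -0.14 and NAMPT at -0.0028.

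Among 7 fork reversal and protection genes, RAD18 was lower and CLSPN and WDHD1 were higher. The call for WDHD1 (0.25 ± 0.08, SE) was lost without 2022 replicate 1 (0.11, adjusted p = 0.299, edgeR). Of 8 genes of ubiquitin, NEDD8 and the COP9 signalosome, 6 were higher, with COPS5, the catalytic subunit of the signalosome, at 0.38 ± 0.05. The residual from the curve called 2 of the 8 higher, and COPS5 was at -0.058. Of 9 genes of p53 and cell cycle control, 4 were higher, beside 54.8% of all BARD1 partners. The repressor E2F7 was at 0.27 ± 0.05 and cyclin E1, encoded by CCNE1, at 0.22 ± 0.05. Both grew about as fast as control cells alone, at 0.07 and -0.05.

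**Figure D4:**
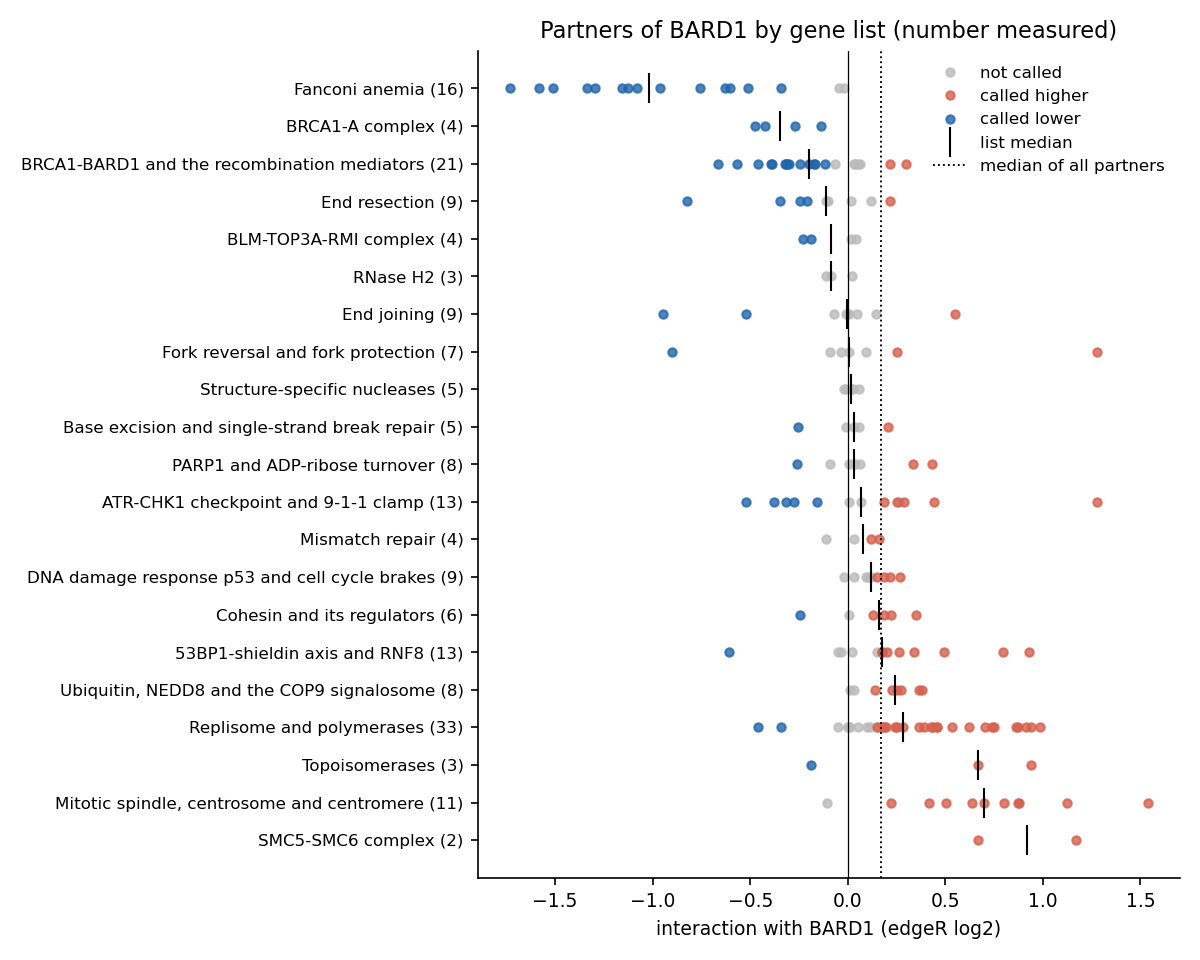
Interaction with BARD1 (edgeR log2) of every measured member of 21 gene lists, coloured by call, with the median of each list and, dotted, the median of all 542 partners. Fanconi anemia, the BRCA1-A complex and the recombination mediators have the lowest medians, and the SMC5-SMC6 complex, the spindle list and the topoisomerases the highest.

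Partners were next compared with those of BRCA1 and BRCA2, the 2 backgrounds nearest to BARD1 in function, by testing the difference of the 2 interactions in each culture with limma over 541 partners. BARD1 minus BRCA1 was below 0 for 43 partners (7.95%) and above 0 for 75 (13.9%). UBE2T was lower by -1.21 ± 0.14 (SE), with an interaction of -1.58 with BARD1 and -0.40 with BRCA1. FANCB differed by -0.90 ± 0.06, FANCA by -0.68 ± 0.08, FANCD2 by -0.67 ± 0.08 and RAD18 by -0.55 ± 0.06. In all, 14 of the 16 Fanconi genes were lower with BARD1 than with BRCA1, although the call for FANCG (-0.37 ± 0.09) was lost without 2023 replicate 1 (-0.29, adjusted p = 0.0584) or 2023 replicate 2 (-0.29, adjusted p = 0.0987). With BRCA1 itself, 13 of the 16 were called lower and 1 higher, with a median of -0.45. Among all 542 partners of BRCA1, 46 were called lower and 287 higher.

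In the opposite direction, NOL6 was higher with BARD1 than with BRCA1 by 1.18 ± 0.16 (SE), HAUS1 by 0.83 ± 0.11, CAD by 0.81 ± 0.08 and DYNLL1 by 0.55 ± 0.06. Adjusted p in limma was at most 0.00041 for these 4. TP53BP1 differed by 0.44 ± 0.12 (adjusted p = 0.0201), and by 0.28 without 2022 replicate 1 (adjusted p = 0.0277). The 2 backgrounds differ in their own growth, -1.33 for BARD1 and -0.49 for BRCA1, and the part of that in these differences was not tested. Without 2023 replicate 2, the counts were 27 lower and 45 higher.

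BRCA2 was close to BARD1 in own growth, at -1.32, and the 5 partners farthest below their BRCA2 values were all Fanconi genes. BARD1 minus BRCA2 was below 0 for 42 partners (7.76%) and above 0 for 40 (7.39%). FANCB differed by -1.98 ± 0.08 (SE), FANCA and C19orf40 both by -1.71 (± 0.10 and ± 0.12), UBE2T by -1.67 ± 0.10 and FANCD2 by -1.46 ± 0.09. With BRCA2, 0 of the 16 Fanconi genes were called lower and 10 were called higher by edgeR, with FANCB at 0.26, beside 43 lower and 282 higher among all 542 partners of BRCA2. RAD18, lower by -0.90 ± 0.07, and RBBP8, lower by -1.001 ± 0.10, were not below 0 with BRCA2 (0.00071 and 0.18).

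TP53BP1 was the partner most above its BRCA2 value, at 0.93 with BARD1 and -0.10 with BRCA2, a difference of 1.01 ± 0.12 (SE, adjusted p = 0.000138 in limma), and DYNLL1 differed by 0.62 ± 0.07. KIAA1524 was low with both, at -0.95 and -0.79, and the difference of -0.13 ± 0.12 was not called. POLQ was at -0.52 with BARD1 and -0.92 with BRCA2, a difference of 0.40 ± 0.11 (adjusted p = 0.0308) that was lost without 2022 replicate 2, 2023 replicate 1 or 2023 replicate 2. PARP1 was at -0.26 with BARD1 and -0.68 with BRCA2, a difference of 0.42 ± 0.08. The count of 40 partners above BRCA2 depended on single cultures: it was 93 without 2022 replicate 1, 9 without 2022 replicate 2 and 21 without 2023 replicate 2.

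The 2 screens called much the same partners. In 2022 alone 56 partners were lower and 277 higher, against 2.2% and 35.8% over all pairs, and in 2023 alone 67 were lower and 256 higher, against 2.35% and 31.1%. The screens shared 53 lower partners, 94.6% of the 2022 list and 79.1% of the 2023 list, and 232 higher ones, 83.8% and 90.6%. No partner was called lower in one screen and higher in the other. A test of the difference, 2023 minus 2022, called 1 partner, TP53BP1 (-0.60, adjusted p = 0.00668, edgeR), against 0.0401% of all pairs, and 54 partners had an unadjusted p below 0.05. The call was lost in the fit without the replicate block (-0.63, adjusted p = 0.337). Of its 2 values in 2022, replicate 1 at 1.64 stood apart and replicate 2 at 0.80 was near the 2023 values.

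The 2 BARD1 sgRNAs differed in how strongly they interacted. Of the 69 lower partners, 68 were below 0 with both sgRNAs and 63 were more negative with the second, as were all 14 lower Fanconi genes, such as FANCD2 at -1.90 with the second and -0.89 with the first. Of the 297 higher partners, 275 were larger with the first sgRNA, which had the stronger growth effect alone. Over all 542 partners, 450 were lower with the second sgRNA, and the median interaction was 0.10 with the second and 0.25 with the first. All 69 lower partners were below 0 in both orders within the construct. Sizes differed between the orders too: FANCB was at -1.54 with the BARD1 sgRNA first and -1.94 with it second, and NOL6 at 2.23 and 1.47 in the same order.

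For FANCB the 4 combinations of sgRNAs gave -1.51 ± 0.36, -1.75 ± 0.68, -1.55 ± 0.18 and -2.30 ± 0.32, and for TP53BP1 they gave 0.93 ± 0.47, 0.98 ± 0.43, 0.76 ± 0.62 and 0.94 ± 0.52 (SD, n = 4 cultures each). Each combination of either gene thus lay on the same side of 0. Some partners share a promoter region with another library gene. MOSPD2, whose start lies 352 bases from that of FANCB on chromosome X, had an interaction of -0.56, and CEP89, 284 bases from C19orf40 on chromosome 19, had -0.44 (both named after their values were seen). In the other 4 pairs of library genes with starts within 1000 bases, the calls differed: ZAR1L was lower and BRCA2 higher, PALB2 lower and DCTN5 higher, SMC6 higher and GEN1 not called, and RMI1 lower and HNRNPK not called. Whether sgRNAs also repressed the neighbour was not tested.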

How the data were processed

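Per the labels' protocols, the integrated sgRNA region was copied out of K562 genomic DNA by PCR, and no molecular identifiers are named. The values the authors deposited are unnormalized read counts for every construct, as their whole numbers and unequal totals show. The submitters' processing notes name Bowtie2 2.3.4.1, and its settings are not given in the sources used here. The authors' deposited phenotype tables were not used.

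Counts were summed over the 8 constructs of each gene pair. The fit was edgeR 4.0.16 (glmQLFit) in R 4.3.3 on the 8 DMSO and T0 libraries, with an offset from both single knockdowns and the non-targeting pairs and a block for each culture, which the labels say was sampled at T0 and then divided. Replicate differences correlated weakly between arms (Pearson r 0.053 in 2022 and 0.034 in 2023, across gene pairs), so the pairing rests on the labels. Adjustment was by Benjamini-Hochberg over 161785 sets of constructs, of which 147124 were gene pairs with a mean summed T0 count of at least 100. The common biological coefficient of variation was 4.66%. Values by culture had 1 added to each sum. Differences between backgrounds and residuals from curves were fitted with limma 3.58.1. DESeq2 1.42.0, other library levels, filters, single screens, sgRNAs and orders, and fits leaving out each culture were tried as alternatives. The edgeR fit was tested on simulated data.

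PCR reads are not independent molecules, so depth gives only counting error. The named partners are the 12 lowest and 12 highest called with one sign in all cultures, up to 4 members of each list with the largest interactions where called, BRCA1 and BRCA2, and the 5 largest called differences between screens and from each other background; further names are marked in the text. The members and the 21 gene lists were chosen with earlier results of these data known. Some results for single genes are not reported here.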

Additional observations from a re-analysis of the deposited data

Results flagged for a closer look

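Each value below was set against the other cultures of its group by Dixon's test for 4 samples, over 78 sets of 4 cultures, of which chance is expected to mark about 1 in 20. It marked 5, all in 2022 replicate 1. The growth of BARD1 with non-targeting sgRNAs was -2.06 there, lower than in the other 3 cultures. The interaction with BARD1 was higher there than in the other 3 cultures for NOP10 (1.45), DYNLL1 (0.99), SMC6 (0.94) and WEE1 (0.32). The interaction of TP53BP1 differed between the screens by -0.60 (2023 minus 2022, edgeR with the replicate block), and this was not called without the block (-0.63, adjusted p = 0.337).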

How the results depend on the processing

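The 69 lower partners became 109 with TMM and 113 with median-of-ratios levels taken over the interactions, and 62 to 70 when 1 culture was left out. The 297 higher partners became 79 by the residual from the curve, and 278 to 286 when 1 culture was left out. With TMM or median-of-ratios levels taken before the single knockdowns were set off, chosen after seeing the data, 502 were lower and 5 higher, because every value moves by -1.001 or -1.005. Without the replicate block, 69 were lower and 295 higher, and 0 screen differences were called by edgeR (50 at an unadjusted p below 0.05; TP53BP1 at -0.63, adjusted p = 0.337). BARD1 minus BRCA1 gave 27 to 38 lower and 45 to 66 higher partners, and BARD1 minus BRCA2 35 to 43 lower and 9 to 93 higher, when 1 culture was left out. The growth of BARD1 alone was -0.33 at a TMM level and -1.42 to -1.09 when 1 culture was left out. For the 77 named partners, 1317 of 1459 values under the alternatives kept direction and call, 125 kept only direction and 17 reversed. By the residual from the curve the reversed values were BRCA2 -0.35, CAD -0.31, GEMIN2 -0.063, HJURP -0.14, NOP10 -0.053, ATXN10 -0.0075, DNA2 -0.25, XRCC5 -0.10, MCM2 -0.25, NMNAT1 -0.14, NAMPT -0.0028, WDHD1 -0.16, WAPAL -0.0066, DCTN3 -0.32, COPS5 -0.058 and COPS3 -0.11. DNA2 was also at -0.074 with the second BARD1 sgRNA alone. The cause was not tested. Depth limits some slow-growing partners, such as CAD with 39 and HAUS1 with 42 reads in 1 DMSO library each.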
